A study of Mus musculus with 12 samples.

Results

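A set of 10 genes that respond to or restrain canonical Wnt signalling was followed in mouse embryoid bodies, the floating aggregates in which embryonic stem (ES) cells leave pluripotency. Of the 10 genes, 9 had a microarray probe set annotated to that gene alone among 19938 genes with such a probe set: the agonist Rspo3, the receptor Lgr5, the transcription factor Lef1, and the inhibitors Axin2, Nkd1, Dkk1, Notum, Rnf43 and Znrf3. The tenth, Tcf7, is not analysed here. The genes were chosen by name, as direct Wnt targets or feedback regulators that are not primitive streak factors, and each of the 9 had a single probe set.

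Canonical Wnt ligands bind Frizzled and Lrp receptors, which frees beta-catenin from a destruction complex that contains Axin proteins, and beta-catenin then acts in the nucleus with factors of the TCF/LEF family. Many of the genes switched on in this way encode inhibitors, so that a signalling cell limits its own response and that of its neighbours. In the mouse embryo Wnt signalling is required for the primitive streak, the site where mesoderm and endoderm arise, and embryoid bodies go through a comparable stage.

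The cells were mouse A2lox ES cells (strain 129P2/OlaHsd) carrying a transgene that doxycycline (dox) switches on, and dox was used at 0.5 µg/ml. In the knockdown line dox induces microRNAs against Geminin (gene Gmnn). Its 3 dox arrays received dox from day 0 and its 3 control arrays received none, and all were collected on day 4. In the overexpression line dox induces Geminin itself and was given from day 3. There, 2 dox and 2 control arrays were collected on day 5 (replicates 1 and 2), and 1 dox and 1 control array on day 4 (replicate 3). Every dox array thus combines the drug with an induced transgene, and the effects of the drug and the transgene cannot be told apart. The study asked whether Geminin restrains the acquisition of mesoderm and endoderm fates. The labels do not say whether replicates were separate cultures. Each p-value therefore sets a difference against the spread between these arrays, which may be technical.

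Levels are log2 intensities after quantile normalization of the 12 arrays, and a difference of 1 on this scale is a 2-fold change. Of the 19938 genes, the 15950 whose mean level was 6.46 or above were tested with limma, a linear model fitted to all genes and arrays together, and a gene was called at a Benjamini-Hochberg adjusted p under 0.05 over all of them. All 9 genes passed this filter, Lgr5 through its higher level in the overexpression line, since 3 of the 6 knockdown-line arrays lay below 6.46 for it. Each level belongs to 1 probe set and is compared between arrays, not between genes. The number of arrays limits the precision.

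Gmnn lay on the labelled side in every pair. In the knockdown line it stood at 9.66, 9.74 and 9.63 with dox, against 10.33, 10.15 and 10.05 without. In the overexpression line it stood at 11.38 and 10.83 with dox on day 5, against 10.29 and 10.15 without, and at 11.04 with dox on day 4, against 10.35 without. The fitted dox effect on it was -0.50 ± 0.14 (log2 ± SE; limma adjusted p = 0.965) in the knockdown line and 0.82 ± 0.14 (0.922) in the overexpression line, so neither passed. The arrays carried the pluripotency markers Pou5f1 (11.96 to 12.77 over all groups) and Nanog (11.25 to 12.32) beside streak markers. Of 6 feeder fibroblast markers 5 passed the filter, among them Col1a1 (8.02 to 9.47) and Thy1 (7.47 to 8.37), and Postn (5.86 to 6.40) did not. Their summed deposited intensity ran from 1131 to 1829 over all arrays, and their part in the results was not tested. Summed over 7 measured streak markers (Mixl1, Eomes, Evx1, Mesp1, Gsc, Lhx1 and Fgf8), the deposited intensity ran from 2000 to 6494 in knockdown-line dox arrays and from 1110 to 3861 in their controls. It was 5819 and 10685 in day 5 dox arrays and 5923 and 11308 in day 5 controls of the overexpression line, and 10105 with dox and 11492 without on day 4. In log2 levels Mesp1 ran from 5.98 to 6.63 and Lhx1 from 6.24 to 8.51 in the knockdown line, so both reached below the filter level. The other streak markers stayed above it on all arrays.

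Rspo3 and Lgr5 act on the side that strengthens the signal. R-spondin 3, the secreted product of Rspo3, binds Lgr receptors and thereby removes the ligases Rnf43 and Znrf3 from the cell surface, which leaves more Wnt receptors in place. Rspo3 stood at 7.63, 6.80 and 7.66 in the knockdown line with dox (replicates 1, 2 and 3), against 6.94, 6.31 and 6.92 without. In the overexpression line it stood at 9.94 and 10.52 with dox on day 5, against 10.02 and 10.50 without, and at 8.93 with dox on day 4, against 9.07 without. The 3 combinations of line and day did not overlap: every knockdown-line array was below the day 4 overexpression-line arrays, and these were below the day 5 arrays. In the knockdown line replicate 2 was the lowest array with and without dox, and the dox and control arrays overlapped.

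Lgr5, a receptor for R-spondins and itself a Wnt target in several adult stem cells, followed the same order of line and day. It stood at 6.78, 6.18 and 6.53 with dox in the knockdown line, against 6.47, 5.83 and 6.39 without. On day 5 of the overexpression line it stood at 7.28 and 8.06 with dox, against 7.95 and 8.20 without, and on day 4 at 7.09 with dox, against 6.88 without. The low day 5 value, 7.28, was replicate 1 with dox, and the other 3 day 5 arrays lay close together.

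Lef1 encodes a TCF/LEF family factor through which beta-catenin activates transcription in mesoderm. It stood at 9.96, 9.95 and 10.14 with dox in the knockdown line, against 9.61, 9.42 and 10.15 without, so that replicate 3 did not differ while replicates 1 and 2 did. In the overexpression line it stood at 10.55 and 11.20 with dox on day 5, against 10.53 and 10.95 without, and at 10.92 in both day 4 arrays. All 6 overexpression-line arrays lay above all 6 knockdown-line arrays, and the day 4 arrays lay inside the range of day 5.

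Axin2 is widely used as a readout of canonical Wnt signalling, and its protein is a scaffold of the complex that degrades beta-catenin. It stood at 9.34, 8.53 and 9.29 with dox in the knockdown line, against 8.70, 8.0 and 8.87 without. On day 5 of the overexpression line it stood at 9.24 and 10.20 with dox, against 9.21 and 10.07 without, and on day 4 at 9.87 with dox, against 9.93 without. The replicates set the level more than dox did: in the overexpression line the 2 arrays of replicate 1 lay below all others, and in the knockdown line replicate 2 was the lowest in both groups. The order of the 6 knockdown-line arrays by Axin2 was the same as their order by the mean level of the 7 streak markers, which ran from 7.58 to 9.26 with dox and from 7.06 to 8.32 without. The part of streak markers in the Axin2 levels was not tested.

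Nkd1 encodes a cytoplasmic inhibitor that binds Dishevelled, the protein that carries the signal from the receptor. It stood at 7.91, 7.47 and 7.88 with dox in the knockdown line, against 7.58, 7.36 and 7.48 without. Its day 5 levels in the overexpression line were 8.41 and 8.93 with dox, against 8.32 and 8.74 without, and its day 4 level was 8.21 with dox, against 8.08 without. As for Rspo3, the 3 combinations of line and day did not overlap.

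Dkk1 encodes a secreted antagonist that blocks the coreceptors Lrp5 and Lrp6. It stood at 7.79, 7.21 and 7.44 with dox in the knockdown line, against 7.03, 7.28 and 6.92 without. On day 5 of the overexpression line it stood at 9.88 and 9.63 with dox, against 10.26 and 9.57 without, and on day 4 at 8.52 with dox, against 8.61 without. The line and day groups stood apart here too, but the replicates took another order than for Axin2: on day 5 replicate 1 was the higher one for Dkk1 and the lower one for Axin2, Rspo3, Lef1 and Nkd1.

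Among the 6 members with a promoter window at hand, Dkk1 alone held CTTTGAA or CTTTGAT, forms of the core TCF/LEF recognition sequence, directly upstream of its start. Other forms of this sequence were not searched. RefSeq promoter windows (GRCm38.p6) were at hand for 6 of the 10 genes (Axin2, Lef1, Tcf7, Dkk1, Nkd1 and Rnf43), and the 250 bases before each start were searched on both strands for CTTTGAA and CTTTGAT. The Dkk1 window held 1 match, CTTTGAA beginning 117 bases before the start, shown in capitals, and the other 5 genes held none. Of all 32851 such windows, 7.48% held a match, and 8.63% of all genes held one in any of their windows. The 6 genes had 11 windows. A match is a description of the letters and shows no binding, and the absence of one in this window says nothing about the factor. The window of Dkk1 is printed because it holds the match, and that of Lef1 as a window without one.
Dkk1, chr19:30549497-30549746, minus strand: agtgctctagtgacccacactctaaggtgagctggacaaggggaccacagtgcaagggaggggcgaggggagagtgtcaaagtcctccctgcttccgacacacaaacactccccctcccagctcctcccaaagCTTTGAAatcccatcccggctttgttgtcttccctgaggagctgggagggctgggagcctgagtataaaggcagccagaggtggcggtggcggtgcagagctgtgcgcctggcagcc
Lef1, chr3:131110047-131110296, plus strand: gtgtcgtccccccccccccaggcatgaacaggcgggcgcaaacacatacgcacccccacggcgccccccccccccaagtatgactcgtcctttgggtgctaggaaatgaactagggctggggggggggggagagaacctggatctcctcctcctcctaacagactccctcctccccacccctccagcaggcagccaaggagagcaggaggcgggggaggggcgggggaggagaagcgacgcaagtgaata

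Notum encodes a secreted enzyme that inactivates Wnt ligands by removing their lipid. It stood at 6.98, 7.72 and 7.50 with dox in the knockdown line, against 7.42, 7.56 and 7.34 without. Its day 5 levels in the overexpression line were 7.34 and 8.64 with dox, against 7.38 and 8.39 without, and its day 4 level was 7.67 with dox, against 7.36 without. The 2 arrays of replicate 2 on day 5 were the highest of all 12, and replicate 1 of the same day lay within the range of the knockdown line.

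Rnf43 and Znrf3 encode related membrane ubiquitin ligases that remove Frizzled receptors from the surface. Rnf43 stood at 7.08, 7.09 and 6.90 with dox in the knockdown line, against 7.24, 7.28 and 7.17 without. On day 5 of the overexpression line it stood at 7.29 and 7.46 with dox, against 7.03 and 7.52 without, and on day 4 at 7.07 with dox, against 6.92 without. In the knockdown line all 3 dox arrays of Rnf43 lay below all 3 controls, although by little. Znrf3 stood at 8.65, 8.72 and 8.92 with dox in the knockdown line, against 8.59, 8.68 and 8.89 without. On day 5 of the overexpression line Znrf3 stood at 8.81 and 9.26 with dox, against 8.63 and 9.24 without, and on day 4 at 9.07 with dox, against 9.03 without. For Znrf3 arrays of equal number lay close together whatever the treatment.

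**Figure D1:**
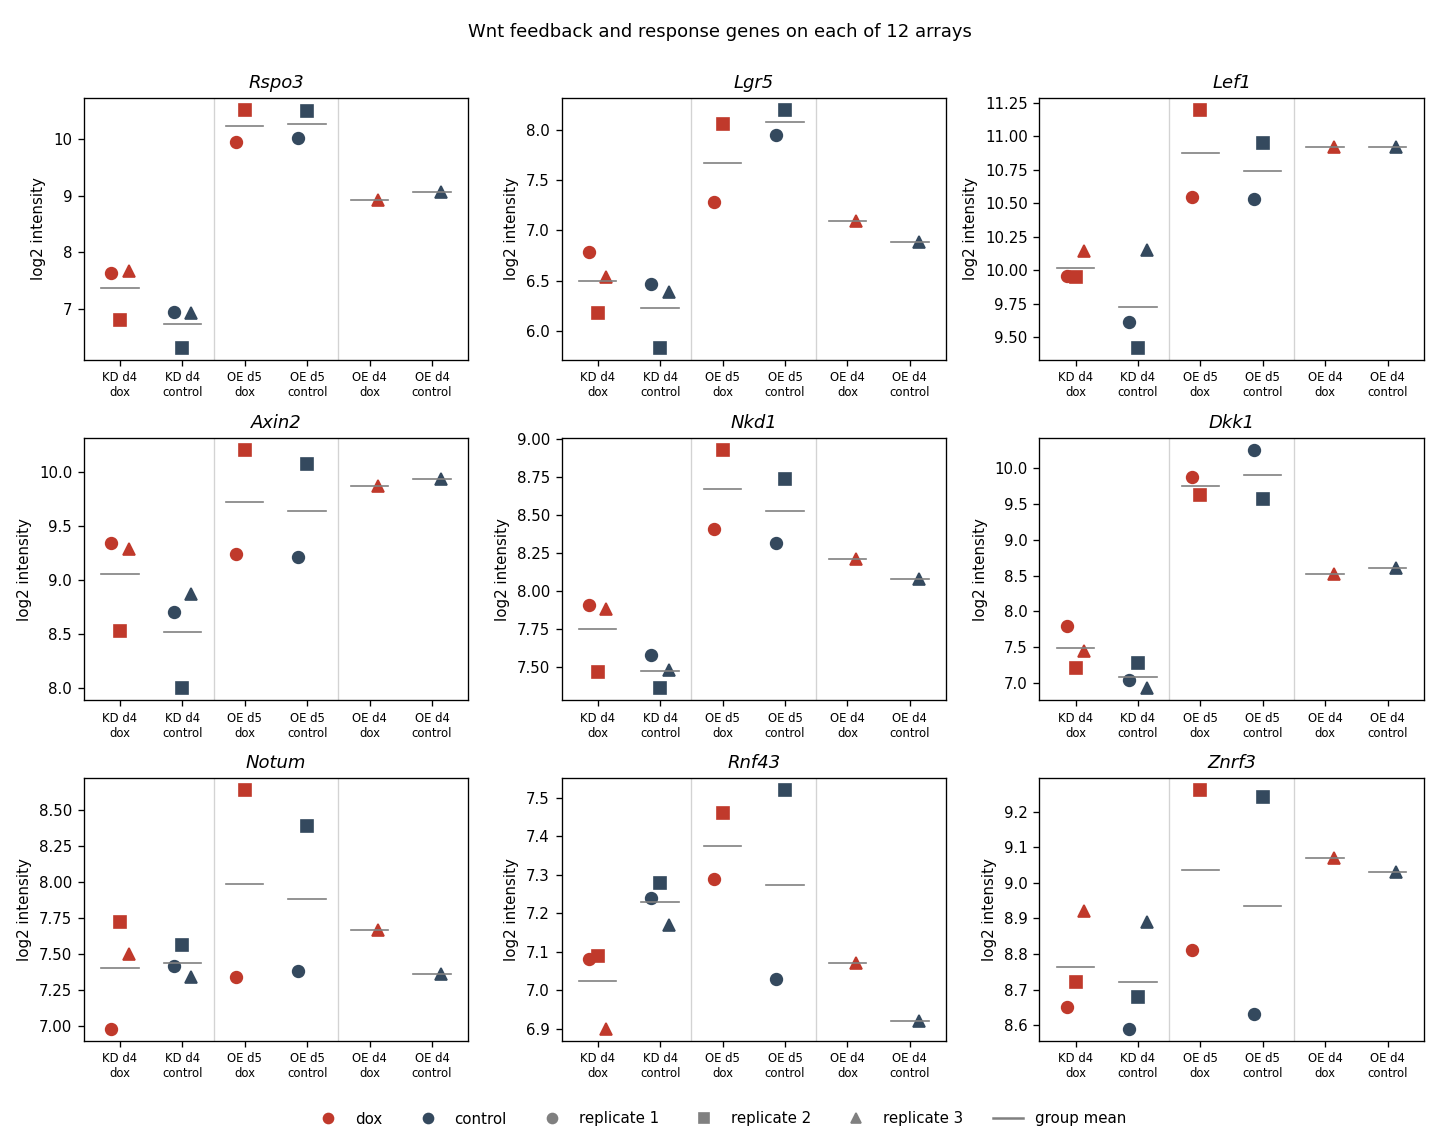
Level of each of the 9 genes (log2 intensity, vertical axis, a separate scale for each panel) on each of the 12 arrays, by line (KD, knockdown; OE, overexpression), day (d4, d5) and treatment; symbols mark replicates and grey lines the group means. Rspo3, Dkk1 and Nkd1 step up between knockdown-line, day 4 and day 5 overexpression-line arrays, while Notum is high only in replicate 2 of day 5.

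The comparison of the knockdown line with the overexpression line on day 4, without dox, asks how far the lines differed apart from dox. Rspo3 and Dkk1 were lower in the knockdown line. Control arrays stood at 6.73 ± 0.36 (SD, n = 3) in the knockdown line and at 9.07 in the single day 4 control of the overexpression line for Rspo3, and at 7.07 ± 0.19 (SD, n = 3) against 8.61 for Dkk1. The fit, which also uses the dox arrays, put Rspo3 at -2.31 ± 0.32 (log2 ± SE), 4.95-fold lower with a limma adjusted p of 0.0203, and Dkk1 at -1.56 ± 0.24, 2.94-fold lower with a limma adjusted p of 0.0305. Over all 15950 genes 0.307% were called in this comparison, 0.27% lower and 0.0376% higher. As the arrays are of whole aggregates, fewer cells that express a gene and less RNA per cell cannot be told apart here or below.

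The other genes did not pass. Axin2 was at -1.36 ± 0.41 (log2 ± SE; limma adjusted p = 0.231), Lef1 at -1.14 ± 0.26 (0.115), Lgr5 at -0.86 ± 0.30 (0.315) and Nkd1 at -0.60 ± 0.21 (0.296). Lgr5 is left out of the counts that follow, since its mean in the knockdown line was below the filter level. Of the other 8 genes, 6 had all 6 knockdown-line arrays below both day 4 overexpression-line arrays, a pattern shown by 8.11% of all genes. The exceptions were Notum, at 0.01 ± 0.41 with a 95% interval from -0.90 to 0.92, and Rnf43 at 0.29 ± 0.15. Of the fitted differences 2 of 8 were above 0 (53.1% of all genes), and 0 of 8 genes had every knockdown-line array above both day 4 arrays (8.41%). Before adjustment 5 of 8 genes had a limma p under 0.05, against 11.6% of all genes. The median over the 8 genes was -0.87 and that over all genes 0.017. All 7 streak markers were lower in the knockdown line as well (median -2.27, 2 called), and so were 6 of 6 mesoderm markers (median -1.05, 3 called), and their part in these differences was not tested.

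Line and replicate cannot be told apart in this comparison, because the overexpression line has 1 pair of arrays on day 4. With the arrays without dox alone 0 of 9 genes and 0 of all genes were called, with Rspo3 at -2.34 (limma adjusted p = 0.2) and Dkk1 at -1.53 (0.435). Without either day 4 array 0 of all genes were called. The Rspo3 call was lost without control replicate 1 (-2.42, limma adjusted p = 0.0663) or 2 (-2.10, 0.0548) of the knockdown line, and without the day 4 control (-2.24, 0.897) or dox array (-2.34, 0.167). The Dkk1 call was lost without any of these (-1.53, limma adjusted p = 0.109; -1.66, 0.0548; -1.60, 0.897; -1.53, 0.208), without knockdown-line control replicate 3 (-1.48, 0.0512) or dox replicate 3 (-1.56, 0.0547), and without day 5 dox replicate 2 (-1.52, 0.0599). The sizes of both differences moved little.

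The comparison of day 5 with day 4 in the overexpression line asks how the genes differ between these days, which hold different replicates. Dkk1 rose. It averaged 9.76 ± 0.17 (SD, n = 2) with dox and 9.92 ± 0.49 (SD, n = 2) without on day 5, against 8.52 with dox and 8.61 without on day 4. The fit put the difference at 1.28 ± 0.20 (log2 ± SE), 2.42-fold higher with a limma adjusted p of 0.0346. Rspo3, with 10.23 ± 0.41 and 10.26 ± 0.34 (SD, n = 2 each) with and without dox on day 5, against 8.93 and 9.07 on day 4, differed by a like amount, 1.24 ± 0.28, but missed the threshold (limma adjusted p = 0.0796). Of all genes 0.558% were called, 0.395% higher and 0.163% lower.

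Lgr5 was at 0.89 ± 0.26 (limma adjusted p = 0.156), Nkd1 at 0.46 ± 0.18 (0.28) and Rnf43 at 0.33 ± 0.13 (0.286). Rspo3, Dkk1, Nkd1 and Lgr5 had all 4 day 5 arrays above both day 4 arrays, and without Lgr5, for the reason given above, these are 3 of 8 genes, against 15.4% of all genes. Axin2 and Lef1 showed no such step, with -0.22 ± 0.35 (95% interval -1.0 to 0.56) and -0.11 ± 0.22 (-0.60 to 0.38), nor did Znrf3, at -0.07 ± 0.18 (-0.47 to 0.33). Whether these genes differ from Dkk1 in their difference between the days was not tested. Of these 8 genes 5 had a fitted difference above 0 (49.8% of all genes), and 0 had all day 5 arrays below both day 4 arrays (15.1%). Before adjustment 4 of 8 had a limma p under 0.05, against 14.2% of all genes. The median over the 8 genes was 0.38 and that over all genes -0.001. Of the 7 streak markers 6 were lower on day 5 (median -0.35, 0 called) and all 6 mesoderm markers were higher (median 0.56, 0 called).

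Day 4 is represented by replicate 3 alone in this line, so day and replicate cannot be told apart. With the arrays without dox alone Dkk1 was at 1.31 and was not called (limma adjusted p = 0.992). The Dkk1 call was lost without either day 4 array (1.24, limma adjusted p = 0.61 without the control; 1.31, 0.557 without dox), without day 5 control replicate 1 (1.12, 0.0755) or 2 (1.42, 0.0506), day 5 dox replicate 2 (1.33, 0.0901), or knockdown-line control replicate 1 (1.28, 0.054) or dox replicate 3 (1.28, 0.0613), which enter through the shared spread.

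**Figure D2:**
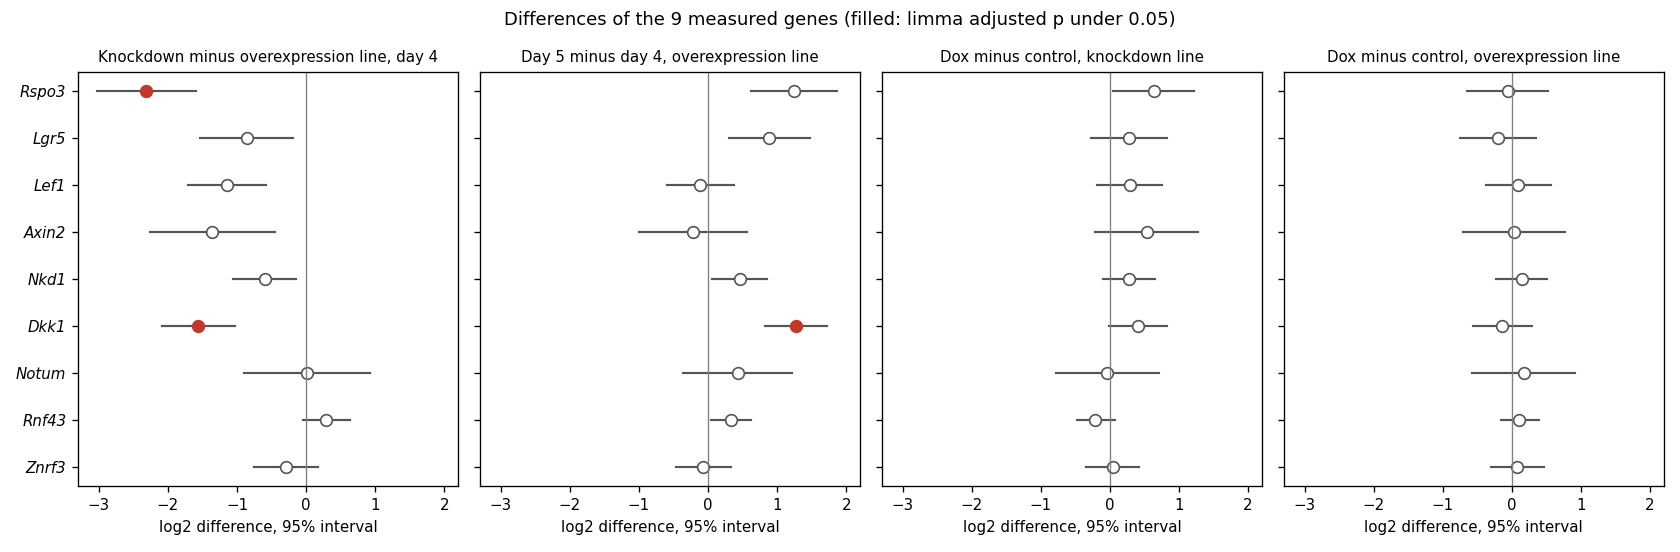
Fitted log2 difference (horizontal axis) with its 95% interval for each of the 9 genes in 4 comparisons; filled red points passed a limma adjusted p under 0.05. Rspo3 and Dkk1 pass between the lines and Dkk1 between the days, and no gene passes for dox in either line.

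Dox and control arrays of the knockdown line were compared to ask whether the 9 genes move when Geminin is depleted. Limma called 0 of the 9 genes, and 0.00627% of all genes (1 gene, the purine salvage enzyme gene Hprt). Rspo3 differed most among the 9, with 7.36 ± 0.49 with dox and 6.73 ± 0.36 without (SD, n = 3 each). Its fitted difference was 0.64 ± 0.27 (log2 ± SE), 1.56-fold, with a limma p of 0.0359 before and 0.965 after adjustment. It was the only one of the 9 under an unadjusted p of 0.05, as were 3.76% of all genes. Axin2 averaged 9.05 ± 0.46 with dox and 8.52 ± 0.46 without (SD, n = 3 each), a difference of 0.53 ± 0.33 (95% interval -0.21 to 1.27), and Dkk1 7.48 ± 0.29 and 7.07 ± 0.19, a difference of 0.40 ± 0.19 (-0.02 to 0.83). Over the arrays of this line alone, exact two-sided permutation tests gave p = 0.3 for Rspo3, 0.3 for Axin2 and 0.2 for Dkk1, where 3 arrays against 3 cannot go below 0.1. Neither test takes arrays of equal number as pairs, and a fit with a replicate block is given at the end.

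Between arrays of equal number, which the labels do not state to share a culture, dox minus control for Rspo3 was 0.68, 0.49 and 0.74 in replicates 1, 2 and 3. It was 0.64, 0.53 and 0.42 for Axin2, 0.34, 0.10 and 0.40 for Nkd1, and 0.31, 0.35 and 0.14 for Lgr5. With Znrf3, at 0.05, 0.04 and 0.03, 5 of the 9 genes were higher with dox in all 3 pairs, against 19.5% of all genes. Dkk1 (0.76, -0.07 and 0.52) and Lef1 (0.35, 0.53 and -0.01) were higher in 2 pairs, and Notum (-0.43, 0.16 and 0.16) in 2 as well.

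Rnf43 went the other way. It averaged 7.02 ± 0.10 with dox and 7.23 ± 0.06 without (SD, n = 3 each), a difference of -0.21 ± 0.12 (limma adjusted p = 0.965), with pair values of -0.16, -0.19 and -0.27. It was the single member whose groups did not overlap, with every dox array below every control, as for 3.25% of all genes, while 0 members had every dox array above every control, against 4.97% of all genes. An exact permutation test, two-sided, gave p = 0.1 for Rnf43, the lowest value 3 against 3 can reach. Rnf43 was also the only member lower with dox in all 3 pairs, against 12.2% of all genes. Of the 9 genes 7, Lgr5 among them, had a fitted difference above 0, against 52.7% of all genes. The median of the 9 was 0.28, against 0.01 over all genes. Without single arrays this median ranged from 0.13 to 0.42. Without control replicate 2 the difference was 0.27 for Axin2, 0.43 for Rspo3, 0.13 for Lef1 and 0.07 for Lgr5, and without dox replicate 2 it was 0.79 for Axin2 and 0.92 for Rspo3. The 7 streak markers were higher with dox (median 0.78, 0 called) and the 6 visceral endoderm markers lower (median -0.30, 0 called), and their part in these differences was not tested.

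The matching comparison in the overexpression line asks about a raised Geminin level. Limma called 0 of 9 genes, as for all genes but 1 (0.00627%), and 0 of 9 had an unadjusted p under 0.05, against 0.934% of all genes. The fitted differences lay between -0.20 ± 0.25 (SE) for Lgr5 and 0.17 ± 0.33 for Notum, with Axin2 at 0.03 ± 0.33 (95% interval -0.70 to 0.77), Rspo3 at -0.06 ± 0.27 (-0.65 to 0.52) and Dkk1 at -0.14 ± 0.19 (-0.56 to 0.29). These intervals overlap those of the knockdown line for Axin2 (-0.21 to 1.27), Rspo3 (0.05 to 1.22) and Dkk1 (-0.02 to 0.83). The difference between the lines is tested below.

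In pairs of equal number Nkd1 was higher with dox by 0.09, 0.19 and 0.14, and Znrf3 by 0.17, 0.02 and 0.04. The widest spread was that of Lgr5, at -0.68 and -0.14 on day 5 and 0.21 on day 4, and of Dkk1, at -0.38, 0.06 and -0.09. Lef1 was at 0.02 and 0.25 on day 5 and at 0 to 2 decimals on day 4. Counted on unrounded values, with Lef1 included, 3 of 9 genes were higher in every pair and 0 lower, against 16.6% and 10.5% of all genes. In 0 genes did the dox and control arrays of this line stand fully apart, above (1.94% of all genes) or below (1.84%), with both days pooled. For Rspo3, Dkk1, Nkd1 and Lgr5 this was fixed in advance, as every day 5 array lay above both day 4 arrays. Of the fitted differences 6 of 9 were above 0 (56.7% of all genes), with a median of 0.08, against 0.014 over all genes. This median turned to -0.10 without control replicate 1 or dox replicate 2 of day 5.

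The difference between the 2 dox effects, knockdown minus overexpression line, was tested in the same model and called 0 of 9 genes and 0 of all 15950 (0%), with 0 members and 2.13% of all genes under an unadjusted limma p of 0.05. Of the 9 genes 6, Lgr5 among them, had a difference above 0, against 50.1% of all genes. The difference was 0.70 ± 0.38 (log2 ± SE) for Rspo3, 0.54 ± 0.27 for Dkk1, 0.50 ± 0.47 for Axin2 and -0.32 ± 0.18 for Rnf43, each with a limma adjusted p of 1. The lines also differ in when dox began and in the day of collection.

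**Figure D3:**
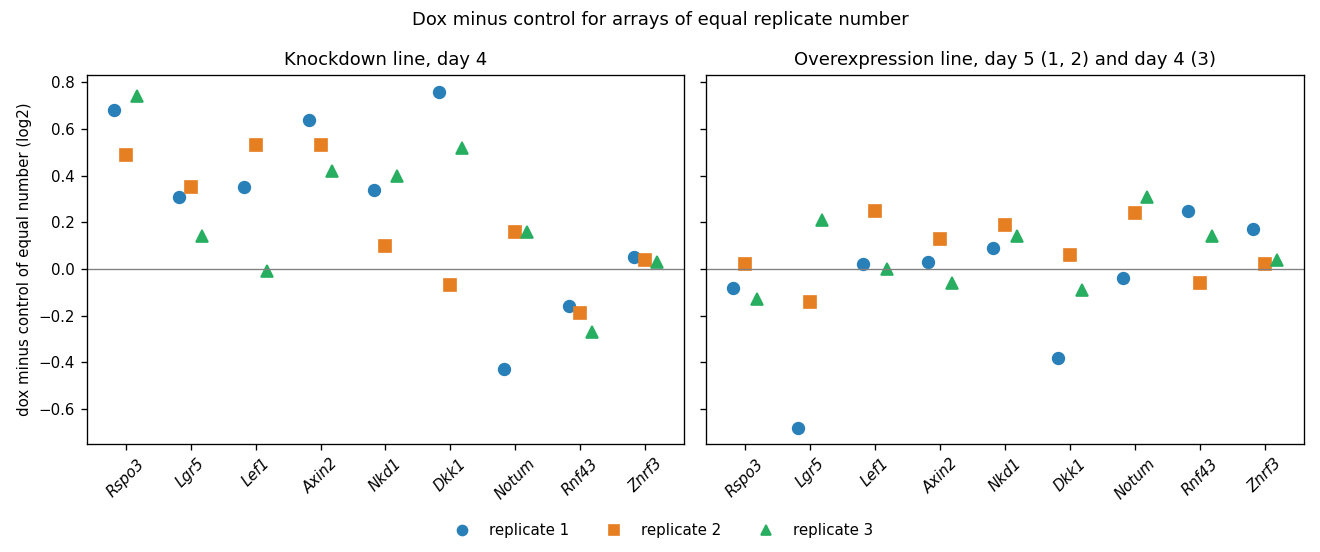
Dox minus control (log2, vertical axis) for arrays of equal replicate number, for each of the 9 genes in the knockdown line (left) and the overexpression line (right). In the knockdown line Rspo3 and Axin2 lie between 0.42 and 0.74 in all 3 pairs and Rnf43 below 0 in all 3, while in the overexpression line most points lie near 0.

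The wider pathway was read from a list of 93 genes, from ligands to nuclear cofactors and other response genes, of which 89 were tested. With dox in the knockdown line 0 of the 89 were called, 47 were above 0 and 42 below, and the median was 0.01, as over all genes. By role, the 13 tested response genes outside the 9, some of them streak markers, had 12 above 0, 1 below and a median of 0.47, where 52.7% of all genes were above 0. The 18 ligands had 8 above, 10 below and a median of -0.09, and the 13 secreted antagonists 3 above, 10 below and a median of -0.13. Mixl1, a homeobox gene of the streak, was at 0.91 ± 0.77 and Evx1 at 0.82 ± 0.33, while the secreted protein gene Dkk3 was at -0.40 ± 0.18 and the ligand gene Wnt9a at -0.37 ± 0.14 (log2 ± SE), each with a limma adjusted p of 0.965. Sp5, a zinc finger factor induced directly by Wnt, was at 0.47 ± 0.39 and Wnt3, the ligand needed for the streak, at 0.45 ± 0.24, while Wnt3a was at -0.30 ± 0.16 and the antagonist Sfrp1 at -0.21 ± 0.24.

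For dox in the overexpression line 0 of the 89 were called, with 53 above and 36 below 0 and a median of 0.02. The ends of the list were Rspo4 (0.30 ± 0.21), the homeobox gene Cdx1 (0.29 ± 0.15), the antagonists Frzb (-0.41 ± 0.53) and Wif1 (-0.23 ± 0.19). Sp5 was at 0.15 ± 0.39, Wnt3 at 0.03 ± 0.24 and Wnt3a at -0.02 ± 0.16. For the difference between the dox effects 0 of 89 were called, with Frzb at 0.96 ± 0.75, Mixl1 at 0.91 ± 1.09, Wnt10a at -0.55 ± 0.42 and Dkk3 at -0.48 ± 0.25.

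Between the days 0 of 89 were called. Msx2, a homeobox gene of mesoderm, was at 1.14 ± 0.27 (limma adjusted p = 0.0933) and Sfrp1 at 1.10 ± 0.26 (0.092), while Wnt8a, a ligand of the streak, was at -1.04 ± 0.52 (0.397) and Sfrp2 at -0.66 ± 0.26 (0.276). Between the lines on day 4, 4 of 89 were called, all lower in the knockdown line, where 0.27% of all genes were called lower. No gene was called without either day 4 array or with the arrays without dox alone. These were Wnt5a (-2.81 ± 0.43, limma adjusted p = 0.0305), Evx1 (-2.64 ± 0.41, 0.0321), Msx2 (-1.91 ± 0.31, 0.0433) and the mesoderm factor Tbx6 (-1.05 ± 0.15, 0.0249), named here after their values were seen. Mixl1, at -3.16 ± 0.95, and Frzb, at -2.81 ± 0.65, were further from 0 but did not pass (0.228 and 0.127). Sp5 (-1.39 ± 0.48) and Wnt3 (-1.08 ± 0.30) did not pass either, and at the other end of the list stood Sfrp2 (0.68 ± 0.30) and Dkk3 (0.66 ± 0.21).

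Over the 12 arrays the Pearson correlation among the 9 genes was above 0 in all 36 pairs of genes (lowest 0.14, median 0.69, highest 0.97). After removal of the group means Dkk1 had a correlation below 0 with all 8 other genes (-0.75 to -0.20), and the other 28 pairs lay between 0.20 and 0.96. Each day 4 overexpression-line array is alone in its group and adds nothing to these values. Each day 5 group adds only its contrast of replicates 1 and 2. The arrays fall into groups by line and day, which all genes share, so these values carry no p. The line and day groups accounted for 95.3% of the variation of Dkk1 and 93.9% of that of Rspo3, for 57.6% of that of Axin2 and for 27.8% of that of Notum. With replicate number added these shares were 91% for Axin2 and 91.7% for Notum. Within the 6 knockdown-line arrays the correlations among Axin2, Rspo3, Nkd1 and Lgr5 lay between 0.86 and 0.98, and that of Axin2 with Dkk1 was 0.47, with Notum -0.63 and with Rnf43 -0.75. Of these 6 arrays 3 lay below the filter level for Lgr5. Among the 28 pairs without Dkk1, 11 were below 0 in this line, the lowest at -0.81. The correlation of Dkk1 was below 0 with 3 of the 8 other genes in this line (-0.51 to 0.73).

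Outside the 9 genes, the levels most like those of Axin2 over the 12 arrays were those of Fzd10 (Pearson r = 0.977), a Frizzled receptor gene, Loxl4 (0.972), a lysyl oxidase, the posterior homeobox gene Cdx2 (0.959), the F-box gene Fbxl14 (0.958) and the solute carrier gene Slc22a23 (0.956). In the 6 knockdown-line arrays their correlation with Axin2 was 0.86 to 0.99. Fzd10 stood between 8.02 and 9.42 in the knockdown line, between 9.21 and 10.11 on day 5 and between 9.75 and 9.84 on day 4 of the overexpression line. For Dkk1 the nearest were Adam10 (0.988), a membrane protease, Morn4 (0.984), Sppl2a (0.984), an intramembrane protease, Robo1 (0.983), a Slit receptor, and Kitl (0.983), the ligand of the receptor Kit. Of 14704 genes considered, 64 had a correlation over 0.9 with Axin2 and 227 with Dkk1, and for Robo1 and Kitl it was 0.59 and 0.57 within the knockdown line.

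**Figure D4:**
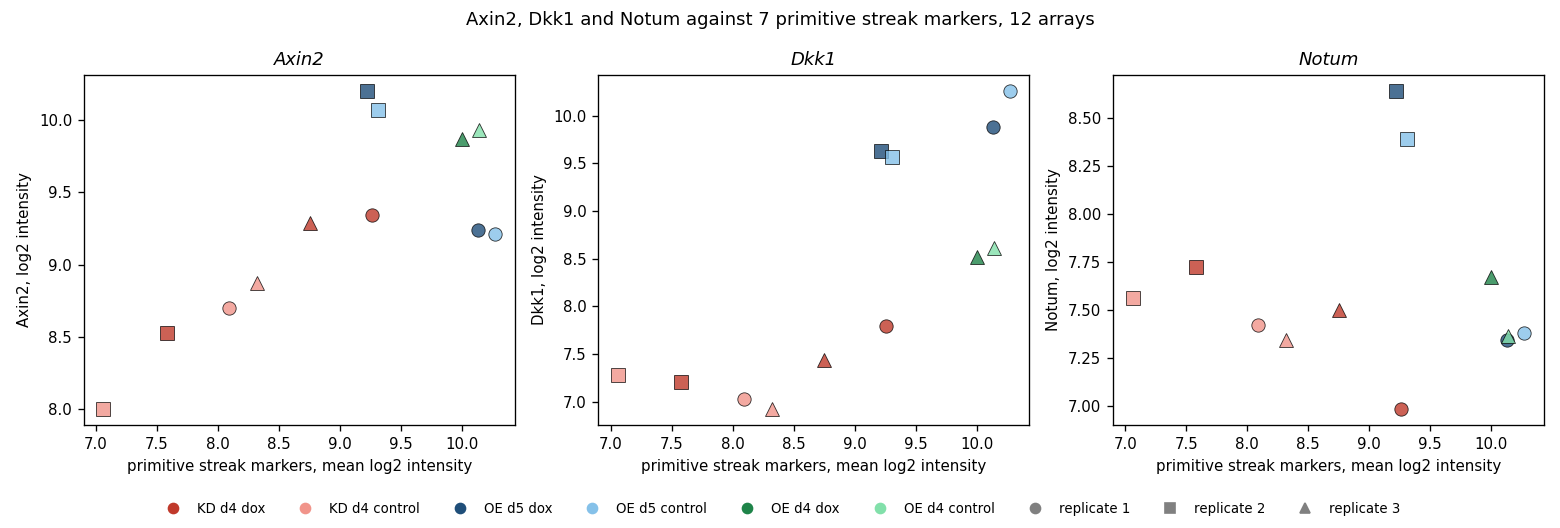
Level of Axin2, Dkk1 and Notum (log2 intensity, vertical axes) against the mean log2 intensity of 7 primitive streak markers (horizontal axes), 1 point for each of the 12 arrays. Axin2 keeps the order of the streak markers within the knockdown line but not in the overexpression line, where day 5 replicate 2 has the higher Axin2 and Notum and the lower streak mean.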

How the data were processed

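For each of 12 arrays the authors deposited 1 linear intensity per probe set. The arrays were hybridised with biotin-labelled target made from 1 µg of RNA, per the labels' protocols. How the authors summarised, background-corrected and normalized the probes is not given in the sources used here. Their means per array ranged between 677.3 and 696.6 and medians between 145.3 and 182.2. Of 35512 probe sets, the platform annotation named 1 gene for 21789, several for 1621 and none for 12102.

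Values were taken as log2(intensity + 1) and quantile normalized, and fold changes are on that scale. The brightest probe set stood for a gene. Genes under the 20th percentile of the mean were left out. Limma 3.58.1 in R 4.3.3 was fitted to all 12 arrays with a baseline per line and day, 1 dox effect per line and no replicate block (7 residual and 3.5 prior degrees of freedom). The steps were tested on simulated data. Named genes were the members, the 2 highest and 2 lowest pathway genes per comparison, Sp5, Sfrp1, Wnt3 and Wnt3a, and the 5 genes most correlated with Axin2 and Dkk1. T, also on the list, is not analysed here. Members, lists and tests were chosen with earlier results of these data known. Alternatives changed the normalization, pseudocount, filter, probe set rule, variance model, block and arrays used.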

Additional observations from a re-analysis of the deposited data

How the results depend on the processing

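The direction and the call of most of the values for single genes held under the alternatives (879 of 935 recomputed values), 22 lost their call and 34 turned sign, all of the latter for differences that were not called. No gene of the 9 was called for dox in either line, or for the difference between the lines, under any alternative run. Hprt, the 1 gene called for dox among all, was not called with the knockdown line alone, with or without a replicate block (0 genes each), nor in the overexpression line alone or with its day 5 arrays alone (0 each), and leaving out single arrays gave 0 to 1 in that line.

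Between the days the 89 calls became 33 with array medians brought together, 27 with no filter (where Dkk1 was not called, 0 of 9, limma adjusted p = 0.0507), 183 with an intensity trend and robust prior, and 0 with the arrays without dox alone (0 of 9). They ranged from 0 to 148 without single arrays, and the members called from 0 to 1. Between the lines the 49 calls became 30 with values as deposited, 29 with no filter and 0 with the arrays without dox alone (0 of 9, with Rspo3 at -2.34 and Dkk1 at -1.53). They ranged from 0 to 80 without single arrays, and the members called from 0 to 2. With a filter at the 40th percentile, which left 7 of the 9 genes, their median was -1.14 in place of -0.86 over all 9. The cause of the other changes was not tested.

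Without single arrays the dox effect of the knockdown line ranged from -0.20 to 0.17 for Notum and from -0.04 to 0.12 for Znrf3. In the overexpression line it ranged from -0.25 to 0.30 for Axin2, -0.10 to 0.27 for Lef1, -0.24 to 0.09 for Rspo3, -0.33 to 0.07 for Dkk1, -0.01 to 0.29 for Nkd1, -0.18 to 0.56 for Notum, -0.41 to 0.08 for Lgr5, -0.02 to 0.26 for Rnf43 and -0.10 to 0.25 for Znrf3. The difference between the lines ranged from -0.01 to 0.29 for Nkd1, -0.60 to 0.14 for Notum and -0.21 to 0.14 for Znrf3, and was 0.03 for Znrf3 with array medians brought together. Day 5 against day 4 ranged from -0.26 to 0.02 for Lef1 and -0.19 to 0.07 for Znrf3, and the line difference from -0.16 to 0.21 for Notum.

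Arrays of equal number correlated after removal of group means at 0.60, 0.44 and 0.05 in the knockdown line. The highest values with another number were 0.02, -0.06 and 0.02. In groups this small, removing the mean itself lowers the values with other numbers. On day 5, with 2 arrays per group, both replicates necessarily share the same value, 0.79. Since replicate 3 of the knockdown line was below 0.1 and the labels state no shared culture, the main fit did not take the numbers to pair the arrays. The other values were higher, and pairing was not tested. Line, day and replicate number together accounted for 73.4% (Rnf43) to 97.6% (Rspo3) of the variation of the 9 genes. Line and day alone accounted for 41.1% in Rnf43 and 93.9% in Rspo3, a part that the main fit removes. The shares over all genes are not given. The standard errors of the main fit include the spread between replicates that remains. With a replicate block within each line 1 gene was called for dox in each line and 0 of the 9. In the knockdown line the block raised the genes with an unadjusted p under 0.05 to 1941 (12.2%) from 599, and those among the 9 to 6 from 1. With the block Rspo3 was at 0.64 ± 0.07 (limma adjusted p = 0.159) and Axin2 at 0.53 ± 0.07 (limma adjusted p = 0.159). For the difference of the dox effects it raised these counts to 1384 genes (8.68%) from 340 and to 4 of the 9 from 0. Below the filter level lay 3 arrays for Lgr5 and 1 for Rspo3, all of the knockdown line.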
